A study of Ursus arctos with 12 samples.

Results

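AMP-activated protein kinase (AMPK) is the energy sensor of the cell, and its 7 subunit genes and 2 upstream kinase genes were followed here in the muscle of hibernating and active brown bears. The 9 genes were taken by their symbols from a table of 30249 genes, and 9 of 9 had enough reads to be tested. They are the catalytic subunits PRKAA1 and PRKAA2, the scaffold subunits PRKAB1 and PRKAB2, the regulatory subunits PRKAG1, PRKAG2 and PRKAG3, and the kinases STK11 (LKB1) and CAMKK2. The samples were biopsies of the vastus lateralis, a thigh muscle, of 6 free-ranging Ursus arctos aged 2 to 3 years. Each bear was sampled in winter, during hibernation, and in summer, in its active period, which gave 12 libraries. The bears were wild animals captured and anaesthetized for sampling in both seasons, and a biopsy holds blood vessels, connective tissue and fat besides muscle fibres.

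AMPK is a complex of 1 alpha, 1 beta and 1 gamma subunit. The alpha subunit carries the kinase, the beta subunit binds glycogen and holds the complex together, and the gamma subunit binds AMP, ADP and ATP, so that falling energy opens the alpha subunit to phosphorylation. LKB1 adds that phosphate together with its partners STRAD and MO25, and CAMKK2 adds it when calcium rises. In skeletal muscle the alpha-2 and beta-2 forms are typical of the fibres, and gamma-3 is found mainly in fast, glycolytic fibres. Active AMPK favours glucose uptake and fat oxidation and restrains lipid, glycogen and protein synthesis. The libraries report mRNA, and the phosphorylation that switches the enzyme was not measured.

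Read totals ran from 16742406 to 32140160 per library. Levels are given as CPM, the reads of a gene relative to the reads of its library after TMM scaling. Each of 17290 genes was tested for a winter-summer difference with the quasi-likelihood test of edgeR, season being the only term, and p values were adjusted over all of them by the Benjamini-Hochberg method. A gene was called at an adjusted p below 0.05. The winter library of bear 1509 lay at −98.6 on the second principal component of the log2 CPM, where the other libraries lay between −8.16 and 29.4. The muscle markers ACTA1, CKM, DES, MB and TTN summed to 91543 to 158996 CPM in summer and 96501 to 131654 CPM in winter, with TTN called higher and ACTA1 and MB lower. Among markers of other cells, 4 of 6 fibroblast, 4 of 6 endothelial, 3 of 6 leukocyte and 2 of 5 smooth muscle and pericyte genes were called lower in winter, where 19.9% of all tested genes were. These counts were the same in DESeq2, and at an unadjusted p below 0.05 they were 6, 4, 5 and 4. The counts called higher were 0, 1 (CLDN5), 0 and 0, and those were the same in DESeq2 and at an unadjusted p below 0.05. The summed fibroblast markers fell from between 3089 and 7936 CPM to between 233 and 1293 CPM, and the endothelial ones from between 588 and 921 CPM to between 396 and 460 CPM. Of 5 nerve and Schwann cell markers 0 were called higher and 1 lower (0 and 1 in DESeq2, 1 and 1 at an unadjusted p below 0.05), and SOX10 and NEFL had no read in at least 1 library. In whole biopsies fewer cells of a type and less RNA per cell cannot be told apart, and the part of these shifts in the values below was not tested.

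Both catalytic subunits and the muscle-typical gamma subunit PRKAG3 rose in winter, and the other 6 genes were not called. The 3 of 9 genes called higher compare with 19.6% of all tested genes called higher. Of the 9 genes 0 were called lower in edgeR, DESeq2 or limma voom, with 19.9% of all genes called lower in edgeR, and 1 (CAMKK2) was lower at an unadjusted p below 0.05. The median log2 fold change of the 9 genes was 0.10, and that of all tested genes was −0.0021. By stricter limits, an adjusted p below 0.01 with a fold change above 1.3 or below 0.77, PRKAA1 alone of the 9 was called, against 24.0% of all genes. Without bear 1509 (both libraries), 1 of the 9 was called higher (PRKAA1) and 1 lower (CAMKK2). Without its winter library alone, 2 were called higher and 0 lower. The count lower was also 1 without bear 1511 and with scaling by library totals, CAMKK2 each time.

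PRKAA1, the alpha-1 catalytic subunit that most tissues use, had the clearest shift. In summer its lowest, median and highest levels were 20.5, 22.3 and 23.5 CPM, and in winter 24.6, 29.4 and 33.6 CPM. Every winter library lay above every summer library. Such a separation with winter above was found for 9.12% of all tested genes, and 1 of the 9 showed it. The fitted log2 fold change, 0.41 with a standard error of 0.09 (adjusted p = 0.00363), corresponds to 1.33-fold. The rise was seen in 6 of 6 bears, from 0.12 in bear 1511 to 0.58 in bear 1509 on the log2 CPM scale, while 18.4% of all genes rose in every bear. Its summer levels were close together, at 4.48 ± 0.07 log2 CPM against 4.88 ± 0.17 in winter (SD, n = 6 bears).

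PRKAA2 encodes alpha-2, the main catalytic form of muscle fibres. It was counted at 3050 to 10229 reads per library. In summer it lay at 155 CPM at the lowest, 183 CPM at the median and 230 CPM at the highest, and in winter at 184, 260 and 333 CPM. The seasons overlapped, because bear 1511 stayed level with 187 CPM in summer and 184 CPM in winter. In the other 5 bears the gene was higher in winter by 0.34 to 0.73 on the log2 CPM scale, with bear 1512 the highest in both seasons. The fitted log2 fold change, 0.46 with a standard error of 0.15 (adjusted p = 0.0229), corresponds to 1.38-fold. This call was lost without bear 1305 (adjusted p = 0.062), bear 1316 (0.0582) or bear 1509 (0.063) and with library totals (0.0722). Those fits had season as the only term, and edgeR blocked by bear gave an adjusted p of 0.0128. Over 15 alternatives the adjusted p ran from 0.00136 to 0.0722.

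**Figure D1:**
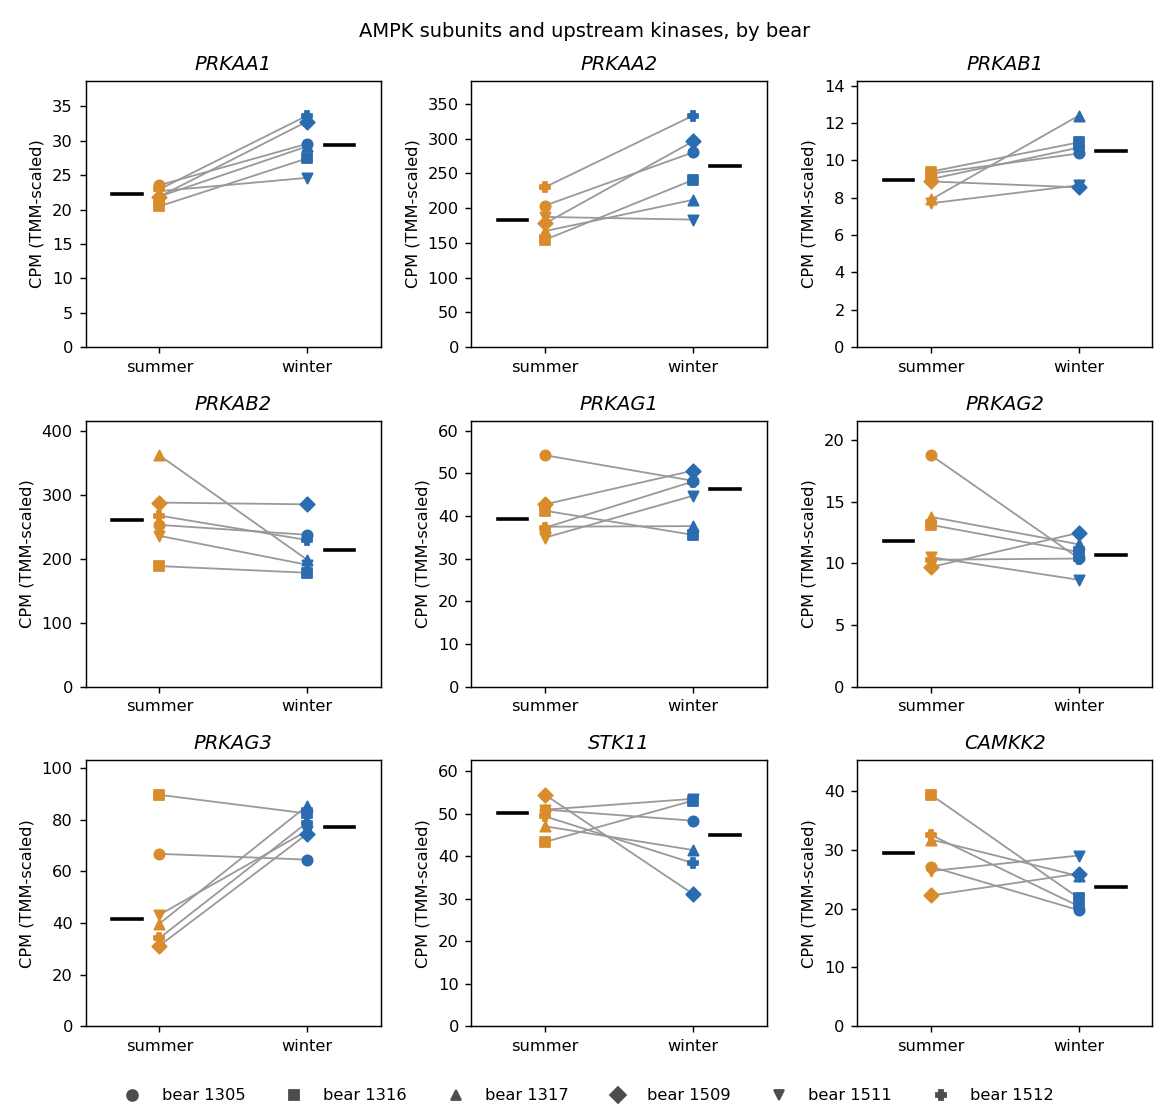
Levels of the 9 genes in TMM-scaled CPM (linear axes from 0, each panel with its own range) in summer and winter. A line joins the 2 libraries of a bear and black bars mark the medians of the 6 bears. PRKAA1 rose in 6 of 6 bears with no overlap between the seasons, and PRKAG3 reached 64.5 to 85.3 CPM in winter from a summer range of 31.1 to 89.6 CPM.

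The scaffold genes did not pass the test, and their estimates pointed in opposite directions. PRKAB1 was at 7.70, 8.93 and 9.40 CPM (lowest, median, highest) in summer and 8.55, 10.5 and 12.4 CPM in winter. It was higher in 5 of 6 bears, all but bear 1509, with a log2 fold change of 0.24 and a 95% interval from −0.02 to 0.50 (adjusted p = 0.127). Without bear 1317 it was 0.16 (adjusted p = 0.362). With 144 to 328 reads per library it was among the shallowest of the 9, and at 144 reads counting error alone is 8.33%.

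PRKAB2, the beta-2 form typical of muscle, was at 189, 260 and 362 CPM (lowest, median, highest) in summer and 178, 214 and 285 CPM in winter. It was the only one of the 9 that was lower in winter in 6 of 6 bears, a pattern that 19.0% of all genes had. The size differed widely between bears, from −0.01 in bear 1509 to −0.86 in bear 1317 on the log2 CPM scale. Bear 1317 had the highest summer level of all libraries, 362 CPM, and came down to 199 CPM in winter. Its log2 fold change of −0.27 had a 95% interval from −0.60 to 0.06 (adjusted p = 0.174). Without bear 1317 the value was −0.14 (adjusted p = 0.513).

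Among the gamma subunits, which read the nucleotide balance, the muscle form PRKAG3 was called and the other two were not. PRKAG3 was at 31.1, 41.4 and 89.6 CPM (lowest, median, highest) in summer and 64.5, 77.2 and 85.3 CPM in winter. The bears fell into different patterns. Bears 1305 and 1316 had 66.8 and 89.6 CPM already in summer and 64.5 and 82.4 CPM in winter, a slight decrease in each. The other 4 bears had 31.1 to 43.1 CPM in summer and 74.4 to 85.3 CPM in winter, which was 0.81 to 1.25 higher on the log2 CPM scale.

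The spread of PRKAG3 between bears was accordingly wide in summer, 5.56 ± 0.59 log2 CPM, and narrow in winter, 6.26 ± 0.14 log2 CPM (SD, n = 6 bears). At 0.60 with a standard error of 0.23 (adjusted p = 0.0475), its log2 fold change was the largest of the 9 and close to the threshold. The call was lost when bear 1317 (adjusted p = 0.146), 1509 (0.0963), 1511 (0.112) or 1512 (0.134) was left out, and also without the filter on low counts (0.0542) and without the winter library of bear 1509 (0.0554). Those fits too had season as the only term, and edgeR blocked by bear gave an adjusted p of 0.0166. Over the 15 alternatives the adjusted p ran from 0.00154 to 0.146 and the log2 fold change from 0.50 to 0.82.

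Because gamma-3 is a fast-fibre form, markers of the fibre types were read beside it. Of 7 fast-fibre markers 0 were higher and 2 lower in winter, MYBPC2, a myosin-binding protein of fast fibres, and ATP2A1, their calcium pump, beside the 19.9% of all genes called lower. At an unadjusted p below 0.05 the counts were 0 and 3, and in DESeq2 0 and 3. Of 6 slow-fibre markers 0 were higher and 1 lower, with 0 and 1 at an unadjusted p below 0.05 and 0 and 1 in DESeq2. The summed fast-fibre markers were at 37632 to 76509 CPM in summer and 44334 to 53662 CPM in winter, and the slow ones at 11493 to 23702 and 13164 to 19934 CPM, so that the seasons overlapped in both. The fibre genes MYH7, TPM3 and MYL1 were not analysed here.

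PRKAG1, the gamma form found in most tissues, was at 34.9, 39.3 and 54.2 CPM (lowest, median, highest) in summer and 35.6, 46.4 and 50.6 CPM in winter. It was higher in 4 of 6 bears, and its log2 fold change of 0.10 had a 95% interval from −0.17 to 0.37 (adjusted p = 0.57). With single bears left out that value ran from 0.04 to 0.15. PRKAG2, the gamma form best known from heart muscle, was at 9.70, 11.8 and 18.8 CPM in summer and 8.66, 10.7 and 12.5 CPM in winter. Bear 1305 stood highest in summer and had the steepest decline, by 0.84 on the log2 CPM scale, while bear 1509 was higher in winter by 0.36. The gene was lower in 4 of 6 bears, with a log2 fold change of −0.24 and a 95% interval from −0.59 to 0.11 (adjusted p = 0.254). Without bear 1305 it was −0.10 (adjusted p = 0.64).

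**Figure D2:**
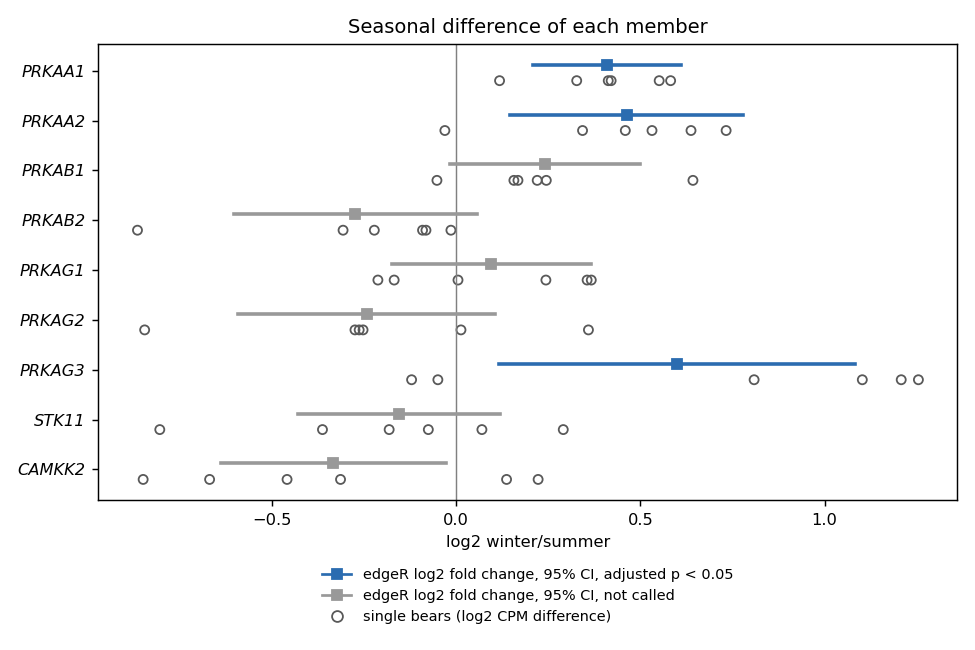
Seasonal difference of each gene on the log2 scale (horizontal axis, positive where winter was higher). Squares with bars are edgeR log2 fold changes with 95% intervals, blue where the adjusted p was below 0.05, and circles are the differences in log2 CPM of the 6 single bears. PRKAA1, PRKAA2 and PRKAG3 stood at 0.41, 0.46 and 0.60, and the unadjusted interval of CAMKK2 ended below 0 although the gene was not called.

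The upstream kinases did not pass the test either. STK11, which encodes LKB1, the main AMPK kinase of muscle, was at 43.4, 50.2 and 54.5 CPM (lowest, median, highest) in summer and 31.2, 45.0 and 53.5 CPM in winter. It was close together in summer and spread out in winter, at 5.63 ± 0.11 and 5.45 ± 0.30 log2 CPM (SD, n = 6 bears). The lowest winter value, 31.2 CPM, was that of bear 1509, which had the highest summer value. STK11 was lower in 4 of 6 bears, with a log2 fold change of −0.16 and a 95% interval from −0.43 to 0.12 (adjusted p = 0.354). Without bear 1509 the value was −0.03 (adjusted p = 0.853), and without its winter library alone −0.07 (0.623).

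CAMKK2, the calcium-dependent AMPK kinase, was at 22.3, 29.5 and 39.4 CPM (lowest, median, highest) in summer and 19.8, 23.7 and 29.1 CPM in winter. It was lower in 4 of 6 bears, by 0.31 to 0.85 on the log2 CPM scale, and higher in bears 1509 and 1511 by 0.22 and 0.14. For CAMKK2 the fitted value was −0.33 on the log2 scale, with a standard error of 0.14 (adjusted p = 0.0769) and a 95% interval from −0.64 to −0.03 before adjustment. It was called lower without bear 1509 (adjusted p = 0.039), without bear 1511 (0.0435) and when scaled by library totals (0.0408), and the adjusted p ran from 0.039 to 0.276 over the 15 alternatives. Its value was smallest without bear 1316, at −0.21 (adjusted p = 0.276).

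No bear moved all 9 genes in one direction. In winter 3 of the 9 were higher in bear 1305, 4 in bear 1316, 5 in bear 1317 and 6 each in bears 1509, 1511 and 1512. The median difference over the 9 genes ran from −0.08 in bear 1316 to 0.24 in bear 1512 on the log2 CPM scale. TMM scaling brings the median over all genes close to 0. Its range of −0.03 to 0.01 in the same bears is therefore no yardstick for a median of 9 genes.

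Whether the mRNA balance between members shifted was asked with ratios of 2 genes in the same library. These ratios do not depend on how libraries are scaled. The subunit make-up of the protein complex was not measured. Gene lengths were not at hand, so a ratio's own level says nothing of which subunit was more abundant, and its seasonal difference is what was tested. The 5 ratios were compared by an exact sign-flip permutation test over the 6 bears, two-sided, for which 0.03125 is the smallest possible p. After adjustment over the 5 ratios, 0 passed 0.05, and 1 reached 0.03125 before adjustment. A ratio at that smallest p passes after adjustment only if most of the other ratios reach it too. The count of 0 in the paired test therefore cannot decide whether a ratio shifted. When the 12 season labels were permuted without pairing, 0 passed after adjustment.

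The ratio of PRKAG3 to PRKAG1 moved most consistently. It rose in 6 of 6 bears, by 0.09 in bear 1316 and 0.12 in bear 1305 and by 0.45 to 1.10 in the other 4, from 0.20 ± 0.53 to 0.81 ± 0.32 (log2, SD, n = 6 bears). The exact permutation test over these 6 bears gave p = 0.03125, adjusted 0.156. The seasons overlapped, since bear 1316 was at 1.12 in summer. In bears 1305 and 1316 PRKAG3 itself was lower in winter, by 0.05 and 0.12, and PRKAG1 was lower by more, 0.17 and 0.21. The ratio of PRKAG2 to PRKAG1 was lower in 5 of 6 bears, by 0.31 on average (exact permutation p = 0.0938, adjusted 0.156). The ratio of PRKAB2 to PRKAB1 was likewise lower in 5 of 6 bears, by 0.49 on average with bear 1317 at −1.51 (exact permutation p = 0.0625, adjusted 0.156). Without bear 1317 its mean difference was −0.29.

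The ratio of the 2 catalytic genes differed by 0.044 on average. PRKAA2 to PRKAA1 stood at 3.06 ± 0.15 in summer and 3.10 ± 0.18 in winter (log2, SD, n = 6 bears), higher in 3 bears and lower in 3, with single bears between −0.15 and 0.22 (exact permutation p = 0.531, adjusted 0.562). The ratio of CAMKK2 to STK11 scattered from −1.14 in bear 1316 to 1.03 in bear 1509 (exact permutation p = 0.562, adjusted 0.562). Its mean difference was −0.14, and without bear 1316 it was 0.054.

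**Figure D3:**
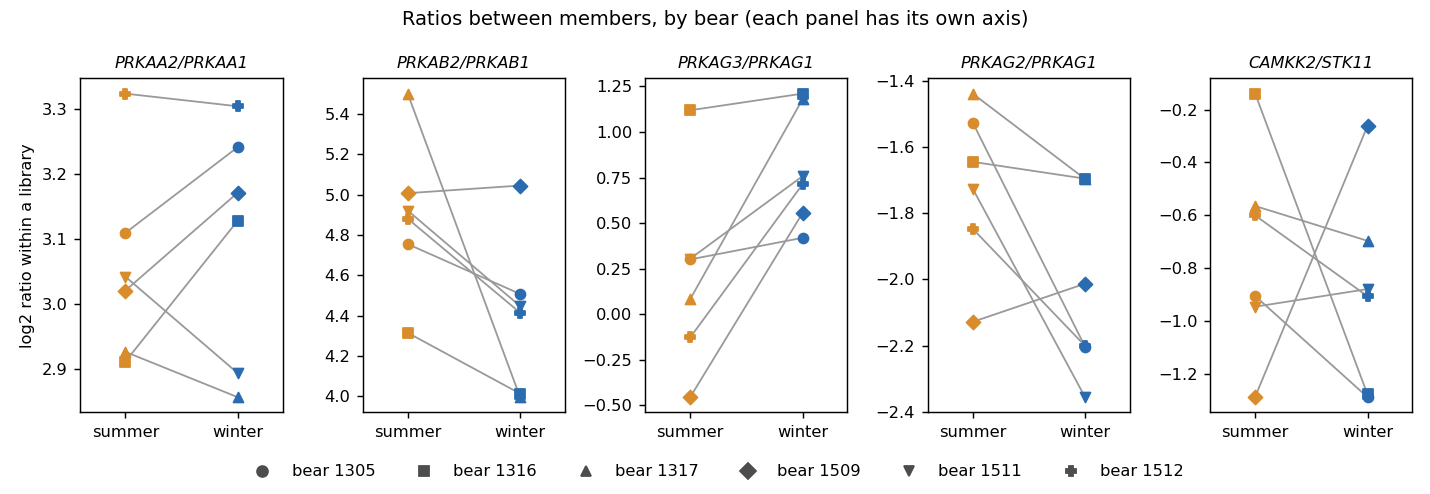
Log2 ratios of 2 genes in the same library (vertical axes, each panel with its own range) in summer and winter, with a line for each of the 6 bears. PRKAG3 to PRKAG1 rose in 6 of 6 bears, while PRKAA2 to PRKAA1 rose in 3 and fell in 3. In bears 1305 and 1316 PRKAG3 itself was lower in winter.

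The genes whose profiles over the 12 libraries lay nearest to those of the called members were found by the root mean square difference of log2 CPM, each gene centred on its own mean. For PRKAA1 they were WDR36, SELENOT and RAB18, at 0.08, 0.08 and 0.09, where the median over all named genes was 0.47. For PRKAA2 they were QKI, UHMK1 and BDP1, at 0.10, 0.10 and 0.11 (median 0.53). PRKAG3 had no neighbour as close, with AP1S2, CMC4 and NENF at 0.24, 0.26 and 0.28 (median 0.66). The measure was not scaled to a gene's own spread, so its values cannot be compared between members. In summer the SD was 0.59 log2 CPM for PRKAG3, 0.07 for PRKAA1 and 0.21 for PRKAA2.

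Around the 9 genes, 59 other genes of the pathway were taken in 5 groups, and all 59 were tested. In winter 7 were called higher and 12 lower, with a median log2 fold change of −0.05, and 40 were not called. These shares, like those of the groups below, stand beside 19.6% of all genes called higher and 19.9% called lower.

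LKB1 works in a complex with the pseudokinases STRADA and STRADB and the MO25 scaffolds CAB39 and CAB39L. Of these 4 partners 1 was higher and 0 lower, with a median log2 fold change of 0.23. At an unadjusted p below 0.05 the counts were 1 and 0, and in DESeq2 1 and 0. STRADA rose, from a median of 10.2 CPM in summer to 12.5 CPM in winter, a log2 fold change of 0.29 with 6 of 6 bears higher (adjusted p = 0.0415). That call was fragile, and 3 of 15 alternatives kept it. Blocking by bear gave an adjusted p of 0.0547, and leaving out single bears 0.0503 to 0.14. STRADB, CAB39 and CAB39L stood at 0.26, 0.20 and −0.01 (adjusted p = 0.12, 0.302 and 0.986).

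Of the 8 other upstream kinases and phosphatases 2 were higher and 3 lower, with a median log2 fold change of 0.0026. MAP3K7 (TAK1), a further kinase that can phosphorylate AMPK, and PPP2CA, the catalytic subunit of protein phosphatase 2A, rose by 0.67 and 0.64 on the log2 scale (adjusted p = 0.000181 and 0.00165). In both, every winter library lay above every summer library. CAMKK1, the close relative of CAMKK2, fell by 0.91 (standard error 0.25, adjusted p = 0.0112) and was lower in 6 of 6 bears, at 21 reads in its shallowest library. Without bear 1305 it was not called (adjusted p = 0.0529). PPM1F, a phosphatase of the PP2C family, fell by 0.76 (adjusted p = 0.00894) in 6 of 6 bears.

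PPM1B, of the same family, was called lower by a narrow margin at −0.26 (adjusted p = 0.0491). Blocking by bear ended this call (0.0794), and 4 of 15 alternatives kept the call. PPM1A and TAB1, an activator of TAK1, stood at 0.20 and −0.19 (adjusted p = 0.159 and 0.476), TAB1 at −0.03 without bear 1509. PPM1E, with 3 reads in its shallowest library, stood at 1.64 with a 95% interval from −0.22 to 3.50 (adjusted p = 0.149), with 3 bears higher and 3 lower. The winter library of bear 1509 held 142 of its reads, 7.84 CPM against a winter median of 0.46 CPM. Without that library PPM1E stood at −0.32 (adjusted p = 0.639), and without bear 1509 at −0.35 (0.638), so that its direction rested on 1 library.

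LKB1 also phosphorylates a family of AMPK-related kinases, and MELK is a relative that works without LKB1. Of these 13 genes 0 were higher and 3 lower in edgeR, with a median log2 fold change of −0.17. At an unadjusted p below 0.05 the counts were 0 and 4, and in DESeq2 0 and 3. SIK2, a salt-inducible kinase, fell by 0.59 (standard error 0.13, adjusted p = 0.00253), lower in 6 of 6 bears and called under 15 of 15 alternatives. NUAK2 fell by 1.27 (adjusted p = 0.0261) at 5 to 58 reads per library, and it was not called without bear 1305 (0.0825), 1509 (0.0882) or 1512 (0.0681). MELK, a gene of dividing cells, had 6 to 20 reads per library in summer and 0 to 4 in winter (log2 fold change −3.15, adjusted p = 0.00371). BRSK1, at 7 to 86 reads per library, was not called at 0.01 (adjusted p = 0.99), although 5 of 6 bears were lower. That status rested on 1 library. BRSK1 was called lower without the winter library of bear 1509 (adjusted p = 0.00132) and without that bear (0.000945).

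Of 12 modulators of AMPK 2 were higher and 1 lower, with a median log2 fold change of −0.08. FNIP1, the folliculin partner that binds AMPK, rose by 0.70 (standard error 0.18, adjusted p = 0.00667), with every winter library above every summer library. ADIPOR1, an adiponectin receptor that signals to AMPK, rose by 0.31 (adjusted p = 0.0255) in 6 of 6 bears. It was not called without bear 1305 (0.0844) or bear 1512 (0.0932) or with library totals (0.131). SESN1, a sestrin that promotes AMPK activation, fell by 0.61 (standard error 0.13, adjusted p = 0.00255) in 6 of 6 bears.

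Of 22 genes whose proteins AMPK phosphorylates, 2 were higher and 5 lower, with a median log2 fold change of −0.12. DESeq2 called 5 higher and 4 lower, or 6 and 4 when blocked by bear. ACACB, the acetyl-CoA carboxylase that restrains fat oxidation in muscle, fell by 1.04 (standard error 0.19, adjusted p = 0.000823), and GYS1, muscle glycogen synthase, fell by 0.69 (standard error 0.13, adjusted p = 0.00106). In both, every winter library lay below every summer library, as in 8.21% of all genes, and both calls held under 15 of 15 alternatives. RPTOR, the mTORC1 subunit raptor, fell by 0.67 (adjusted p = 0.00416) in 6 of 6 bears.

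The other two that fell belong to fat metabolism. LIPE, hormone-sensitive lipase, fell by 1.16 (adjusted p = 0.0077) in 6 of 6 bears. ACACA, the lipogenic acetyl-CoA carboxylase, fell by 1.89 (adjusted p = 0.0148), with 5 of 6 bears lower and 1 higher. It was at 12.6, 27.2 and 184 CPM (lowest, median, highest) in summer and had a winter median of 12.3 CPM. The size of the fall rested on the summer library of bear 1316, the one at 184 CPM. Without bear 1316 ACACA fell by 0.75 (adjusted p = 0.0236), and in edgeR blocked by bear it fell by 1.19 (0.0488). It was not called in limma voom (0.0569) or in DESeq2 with the replicate block (0.0644). DESeq2 with season only gave ACACA no adjusted p. The summed adipocyte markers lay at 299 to 1424 CPM in summer and 217 to 468 CPM in winter, with 1 of 6 higher (LEP) and 1 lower (FABP4). The highest sum, 1424 CPM, was that of the summer library of bear 1316, the library with the highest ACACA. In that library the adipocyte marker ADIPOQ lay at 348 CPM, where its summer median was 32.3 CPM. The part of fat in the values of LIPE and ACACA was not tested. LEP had 0 to 19 reads per library, and blocking by bear ended its call (adjusted p = 0.0629), which was also lost in limma voom. Among the rises, SREBF1, the lipogenic transcription factor, stood at 1.62 (adjusted p = 0.0114), 5 of 6 bears being higher and the bears ranging from −0.76 to 3.39. FOXO3, a transcription factor of the atrophy programme, rose by 0.75 (adjusted p = 0.00122) in 6 of 6 bears.

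**Figure D4:**
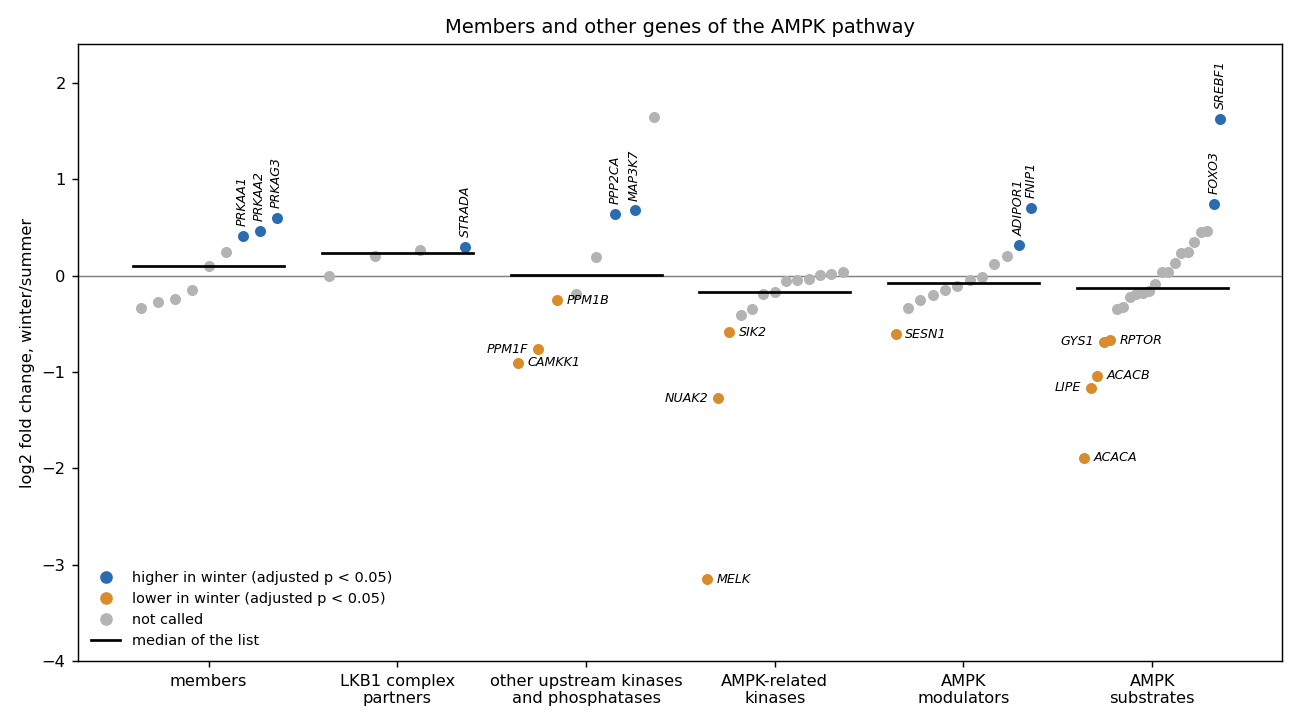
The edgeR log2 fold changes of winter over summer (vertical axis) for the 9 members and 59 other pathway genes, grouped by role and ordered by size within a group. Blue and orange points passed an adjusted p below 0.05, grey ones did not, and black lines mark the medians of the groups, from −0.17 for the AMPK-related kinases to 0.23 for the LKB1 complex partners.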

How the data were processed

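RNA of 12 vastus lateralis biopsies, 1 per season from each of 6 bears, was sequenced. The authors prepared stranded poly-A libraries, mapped the single-end reads with TopHat 2.1.1 (assembly ASM358476v1), counted reads per gene on the opposite strand with featureCounts 1.6.2, and deposited raw counts without normalization. The sequencing lane of a library is not given in the sources used here. The highest-depth library held 32140160 reads and the lowest 16742406. The 2 most alike libraries of a season differed by a chi-square of 39.1 per gene, against 1 from counting noise, so none were duplicates. That check compared different bears within a season and says nothing of the 2 libraries of one bear.

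Genes needed at least 30 reads summed over the libraries. The counts were analysed in R 4.3.3 with edgeR 4.0.16 (TMM, glmQLFit, glmQLFTest, season as the only term). Log2 CPM used a prior count of 2, and 95% intervals came from the edgeR standard errors. The alternatives were the bear as a replicate block, DESeq2 1.42.0 with and without it, limma 3.58.1 voom, RLE factors, library totals, no filter, filterByExpr, each bear left out and, chosen after seeing the data, the winter library of bear 1509 left out. By the study's methods each animal was sampled in both seasons of one year. After the season means were removed, the libraries of a bear correlated at 0.0903 to 0.344 and those of different bears at a median of −0.0634. Each fit was first tested on simulated data, which held no bear effect and so cannot judge the block. There the main fit recovered 54.5% of 2-fold and 76.5% of 4-fold changes, with 11 false calls. False calls numbered 8 in edgeR blocked by bear, 9 in limma voom, 40 in DESeq2 and 55 in DESeq2 blocked by bear.

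The members, gene lists and marker lists were chosen with earlier results of these data known. Named were all 9 members, every gene of a pathway list of up to 8, in longer lists the 4 called genes that rose most and the 4 that fell most, and the 3 nearest profiles of each called member. RPTOR and BRSK1 fall outside this rule and were named after their values were seen. Fold changes between seasons were compared and not levels between genes, for which transcript lengths would be needed.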

Additional observations from a re-analysis of the deposited data

How the results depend on the processing

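The 9 genes kept their direction under each of the 15 alternatives, and 6 of them their side of the threshold. The replicate block (edgeR) gave 3 members higher and 0 lower and, among the 59 other pathway genes, 7 higher and 11 lower, against 7 and 12 without it. Beside the calls of STRADA, PPM1B and CRTC2 (log2 fold change 0.45, adjusted p = 0.0679 without and 0.0414 with the block, named after its values were seen), it changed no call among these genes. The number of members higher was 1 to 2 with each bear left out, and the number lower 0 to 1. With library totals 1 member was lower. The ratio of CAMKK2 to STK11 differed by −0.38 to 0.054 with each bear left out, and 0.054, without bear 1316, turned its direction. The other 4 ratios kept theirs, under a prior count of 0.5 and without pairing too. With 5 bears the exact test cannot reach 0.05. No member lay far enough from the other libraries of its season to stand apart by Dixon's test. At 144 reads, the lowest count of a member, counting error is 8.33%.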
